A study of Mus musculus with 24 samples.

Results

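The question here was whether the drug BCI-838 and a running wheel, given together to APP/PS1 mice, changed gene expression in the dentate gyrus by more or less than the sum of their separate effects. The comparison rests on 19 of the 24 libraries of the series, chosen by their labels as all libraries of APP/PS1 genotype, and none by a measured value. They are 5 libraries of mice with both BCI-838 and exercise (the combined group), 4 of mice with BCI-838 alone, 5 of mice with exercise alone and 5 of APP/PS1 controls with neither. The design names a vehicle for mice without drug, and the labels do not say which controls received it. All 19 mice carry the APP/PS1 transgenes, which drive amyloid plaque formation. The drug was given by mouth at 5 mg/kg each day for 1 month, and the wheel was freely available for 1 month. Each group is described as 5 mice, and for BCI-838 alone 4 libraries entered the comparison. The promoter behind the transgenes and the age and sex of the mice were not given in the sources used here.

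BCI-838 is converted in the body to a compound that blocks mGluR2 and mGluR3, the glutamate receptors made from Grm2 and Grm3. These receptors couple to inhibitory G proteins and restrain glutamate release at presynaptic terminals, and mGluR3 is also found on astrocytes. Voluntary running is known to raise the birth and survival of granule neurons in the adult dentate gyrus, and drugs that block these receptors have been studied for a similar action. An interaction is the effect of the drug in running mice minus its effect in sedentary mice, on the log2 scale. A positive value means that the combined group lay above the level expected if both log2 effects added, and a negative value that it lay below.

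Total counts were between 51407295 and 64632882 per library. Of the 26667 genes in the table, 18155 passed the filter on low counts and were tested. Transcripts of tissue next to the dentate gyrus differed between libraries, in ways that cross the groups compared. Ttr, the thyroid hormone carrier made by the choroid plexus, was over 100 CPM (counts scaled to the size of the library) in 4 libraries, at 297 CPM in combined replicate 5 and at 426, 1620.0 and 1272 CPM in control replicates 2, 4 and 5. Pax7, a transcription factor of the dorsal midbrain, was 0.0742, 3.94, 2.35, 0 and 0 CPM in the combined libraries and 9.89, 6.74, 11.6 and 13.4 CPM in the BCI-838 libraries. It was 2.08, 1.65, 1.195, 16.1 and 0 CPM in the exercise libraries and 9.95, 0, 3.36, 0.491 and 0 CPM in controls. Every BCI-838 library was thus above every combined library for Pax7, and the other groups spanned both. The granule neuron list, which marks the labelled tissue, had mean log2 levels of 6.05 ± 0.58 in the combined group, 5.93 ± 0.24 with BCI-838, 6.51 ± 0.34 with exercise and 6.34 ± 0.69 in controls (SD, n = 5, 4, 5 and 5). In bulk tissue fewer cells of a type and less RNA per cell cannot be told apart.

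**Figure D1:**
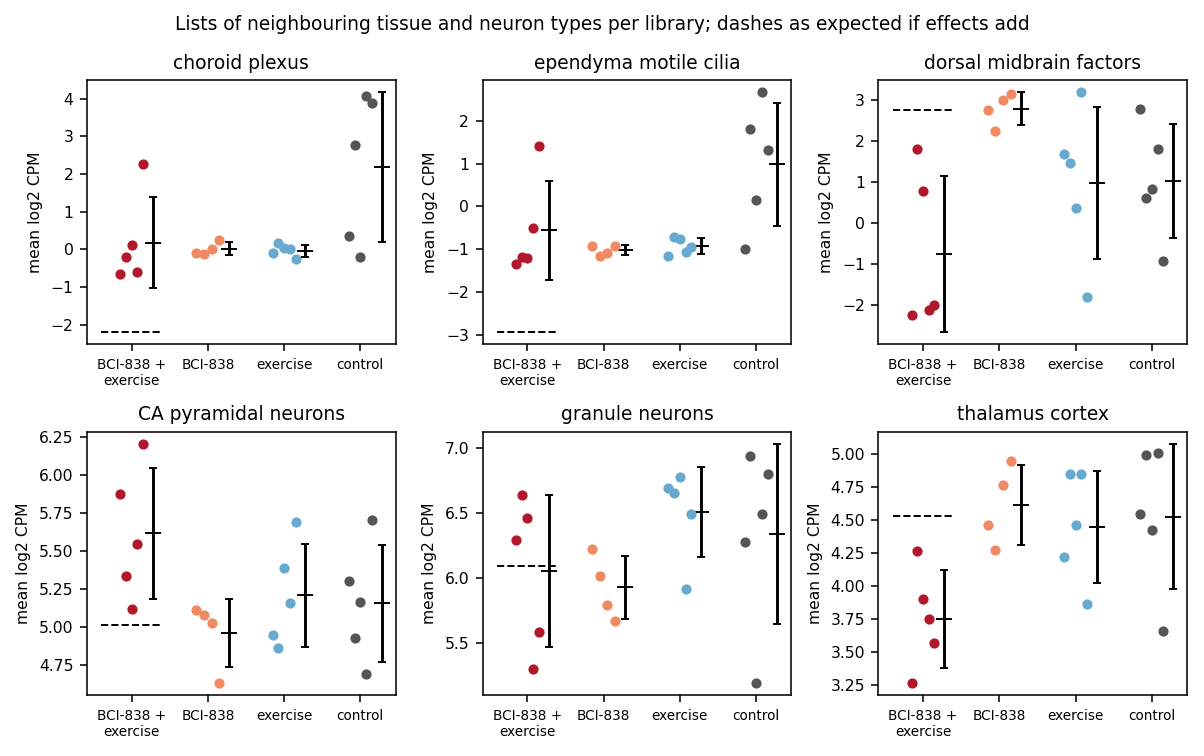
Mean log2 CPM of 6 gene lists for neighbouring tissue and neuron types in each of the 19 libraries (points), with the mean and SD of each group (black) and the level expected in the combined group if the effects add (dashes). Choroid plexus and ependymal genes were high in some controls and in combined replicate 5, and dorsal midbrain factors were high in all BCI-838 libraries.

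No gene departed from additivity at an adjusted p under 0.05 in edgeR's quasi-likelihood test with Benjamini-Hochberg adjustment, which is 0% of 18155 genes. The lowest adjusted p was 0.36. At an unadjusted p under 0.05 there were 1833 genes (10.1%), with 993 above the additive level (5.47%) and 840 below it (4.63%). Over all genes 47.5% had a positive interaction, and the median was -0.01. The SE of the interaction had a median of 0.17 among the 14634 genes with a mean of at least 1 CPM, and the median size of the interaction in them was 0.15. The limma voom fit with quality weights called 0 genes, with 2924 at an unadjusted p under 0.05, whereas DESeq2 called 77, of which 67 were above the additive level and 10 below. Of these 77 genes, 14 belong to the choroid plexus or ependyma lists. That number leaves out Dnahc11 and Dnahc12, which DESeq2 also called and which the ependyma list holds under the names Dnah11 and Dnah12. It also leaves out Ccdc40, a called gene needed to build motile cilia, and so is a lower bound for such tissue. Without the 4 libraries over 100 Ttr CPM, 756 of 18464 genes (4.09%) had an unadjusted p under 0.05. With the dorsal midbrain list as a covariate the number was 397 (2.19%), with the choroid plexus list 793 (4.37%) and with the CA field minus granule level 2054 (11.3%). With these 3 together, a fit chosen after seeing the data, it was 350 (1.93%). Without BCI-838 replicate 4 it was 1205. The covariates themselves departed from additivity. In the combined group the dorsal midbrain list mean was -0.77 against 2.74 expected, and the choroid plexus list mean 0.18 against -2.19 expected. Leaving out the libraries over 100 Ttr CPM keeps 2 controls. In these fits tissue, an interaction and lost precision cannot be told apart as sources of a lower count.

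The 12 genes of smallest p above the additive level and the 12 below it all had an adjusted p of 0.36 (edgeR), and 21 of the 24 were among the DESeq2 calls. Their interactions kept their sign in all alternatives that gave a value. On log2 CPM with a prior count, all 5 combined libraries of each gene were on 1 side of the additive level, which was so for 16.9% of all genes above it and 17.8% below it. With the dorsal midbrain covariate some values were smaller by over 1.5 times. Above the additive level these were Slc7a8 at 0.39, Tnfaip8l1 at 0.57, Fam174b at 0.39, Adra1d at 1.00 and Rgnef at 0.64. Below it they were Mogat1 at -1.69, Notch3 at -0.47, Eln at -0.97, Jph2 at -1.36, Acta2 at -1.59 and Fam59b at -0.41. Prr16 was -0.77 in that fit, against -1.155 in the main fit. With the 3 covariates together Fam174b was 0.30, Prr16 -0.63, Mogat1 -1.55, Jph2 -1.44, Myh11 -1.43 and Fam59b -0.44. The genes were chosen by their p, so these sides describe them and add no evidence.

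Among the genes above the additive level were enzymes, transporters and signalling proteins whose level was lower with either treatment alone than with both. Ak4, a mitochondrial adenylate kinase (chromosome 4, 101416478 to 101467771 in GRCm38), had the smallest p of all genes. Ak4 had 48.1, 37.9, 43.9, 30.3 and 42.8 CPM in the combined libraries and 32.1, 29.3, 25.4 and 30.5 CPM in the BCI-838 libraries. The exercise libraries had 29.3, 26.6, 32.9, 25.1 and 30.8 CPM, and the controls 34.7, 34.1, 39.1, 34.4 and 38.4 CPM. The single treatments lay below the controls with no overlap, and the combined libraries spanned them. The additive level was 23.4 CPM, under every combined library, and the interaction was 0.79 ± 0.16 on the log2 scale (SE; unadjusted p = 6.83e-05, edgeR). Without combined replicate 4, the lowest of its group, Ak4 was called, with 0.89 ± 0.13 and an adjusted p of 0.0289, and over all alternatives its adjusted p ran from 0.00748 to 1.

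Slc7a8, a transporter of neutral amino acids (chromosome 14, 54722215 to 54781886), was lowest with the drug alone. Slc7a8 had 84.5, 84.7, 73.6, 84.1 and 89.1 CPM in the combined libraries and 61.7, 62.1, 55.2 and 57.6 CPM in the BCI-838 libraries. With exercise it had 67.1, 71.2, 81.9, 67.7 and 80.4 CPM, and in controls 64.6, 80.3, 92.4, 73.3 and 83.5 CPM. The BCI-838 libraries lay below all others, and the combined group overlapped both the exercise group and the controls. Its interaction was 0.59 ± 0.13, against an additive level of 55.5 CPM. Il34 encodes a cytokine that binds the receptor Csf1r and sustains microglia (chromosome 8, 110741829 to 110805949). Il34 had 35.3, 23.2, 27.9, 21.9 and 32.9 CPM in the combined libraries and 18.97, 23.3, 18.8 and 16.5 CPM in the BCI-838 libraries. It was 17.1, 16.3, 20.1, 20.4 and 22.7 CPM with exercise alone and 27.1, 18.03, 25.01, 25.4 and 27.1 CPM in controls. Most combined libraries were above the exercise group, and they overlapped the controls. The interaction of Il34 was 0.89 ± 0.21, with an additive level of 15.2 CPM.

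**Figure D2:**
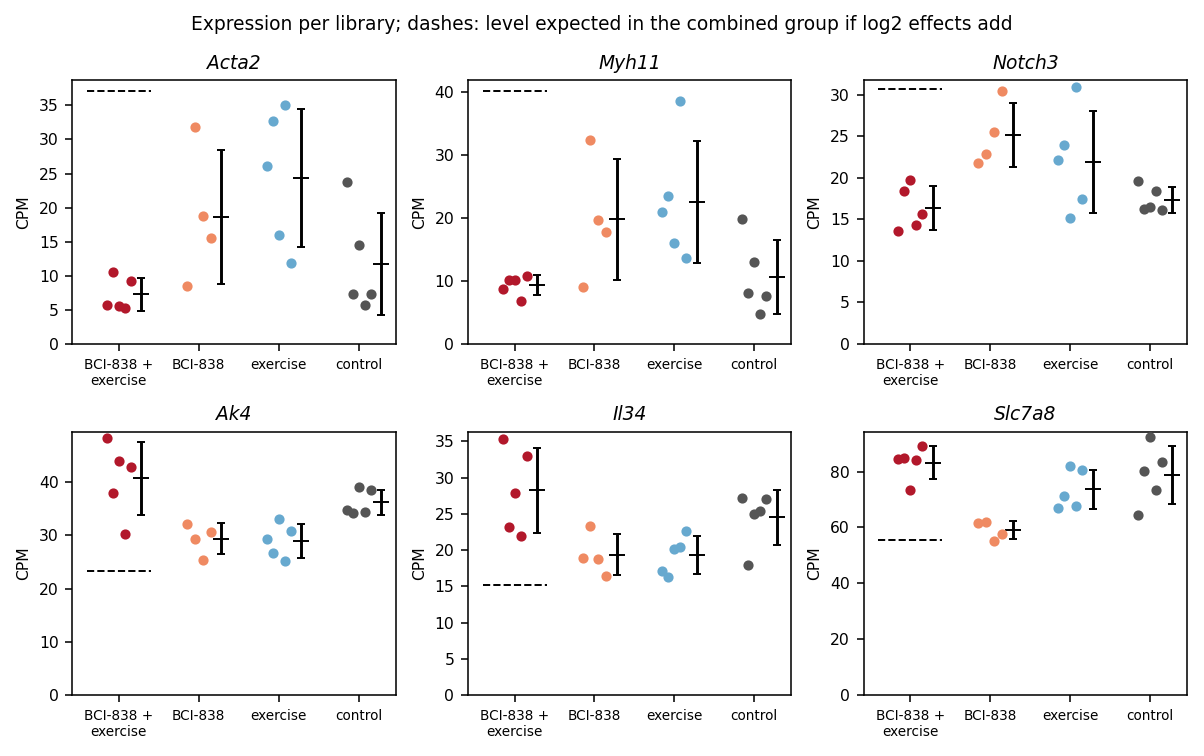
CPM per library of Acta2, Myh11, Notch3, Ak4, Il34 and Slc7a8 in the 4 APP/PS1 groups, with the mean and SD of each group (black) and the combined level expected if log2 effects add (dashes). The combined libraries all lie below the dashes for the 3 genes of mural cells in the upper row and above them for the 3 genes in the lower row.

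Adra1d, the alpha-1D adrenergic receptor (chromosome 2, 131545357 to 131562497), gave the largest interaction among those of the 12 that averaged over 5 CPM in every group. Adra1d had 77.9, 61.5, 45.96, 65.02 and 84.2 CPM in the combined libraries and 29.1, 26.9, 28.3 and 11.9 CPM in the BCI-838 libraries. The exercise libraries had 52.3, 37.1, 58.1, 44 and 71.01 CPM, and the controls 45.8, 61.2, 45.4, 47.2 and 84.4 CPM. The BCI-838 libraries stood apart below the other 3 groups, and replicate 4 was the lowest. The drug effect was 0.35 in running mice and -1.24 in sedentary mice, an interaction of 1.59 ± 0.36. It was 0.89 with the 3 composition covariates together and 1.00 with the dorsal midbrain covariate alone. Rgnef, a guanine nucleotide exchange factor now named Arhgef28, followed the same order of groups. It averaged 75.3 ± 18.9 CPM in the combined group, 36.9 ± 4.204 CPM with BCI-838, 62.3 ± 10.1 CPM with exercise and 62.7 ± 14.7 CPM in controls, with an interaction of 1.04 ± 0.25 that came to 0.41 with the 3 covariates.

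Tnfaip8l1, Fam174b and Vit were also among the 12 genes above the additive level. Tnfaip8l1, of the TNFAIP8 family, averaged 5.08 ± 0.894 CPM in the combined group and 3.33 ± 0.383 CPM with BCI-838, with an interaction of 0.88 ± 0.20. Fam174b averaged 32.2 ± 4.43 CPM in the combined group and 22.8 ± 0.686 CPM with BCI-838, with an interaction of 0.60 ± 0.14. Vit, which encodes the matrix protein vitrin, was 3.004, 3.96, 3.72, 2.37 and 7.27 CPM in the combined libraries and 2.34, 2.13, 1.64 and 2.98 CPM with BCI-838. It was 1.99, 1.63, 1.65, 1.59 and 1.65 CPM with exercise and 3.71, 2.63, 5.703, 5.67 and 1.69 CPM in controls, and the exercise group was the tightest of the 4. Its interaction of 2.03 ± 0.46 was 1.99 without the libraries over 100 Ttr CPM. In that fit Ak4 was 0.80, Il34 0.92, Slc7a8 0.56, Tnfaip8l1 0.82 and Fam174b 0.51, whereas Adra1d was 1.18 and Rgnef 0.60, against 1.59 and 1.04 over all libraries.

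The other 4 positive genes were Ttr and Calml4, of the choroid plexus list, and Ccdc40 and Akd1, which are in none of the lists. Ttr had an interaction of 12.77 ± 2.81 over all libraries. Its value without the 4 libraries over 100 Ttr CPM, 0.43, follows from the choice of those libraries by Ttr itself. Calml4, a calmodulin-like gene of the choroid plexus list, was 0.111, 0.171, 0.162, 0 and 1.35 CPM in the combined libraries and 0.0611, 1.98, 0.617, 5.398 and 3.01 CPM in controls. With BCI-838 it was 0, 0.0172, 0.0338 and 0.0342 CPM, so the size of its interaction rests on counts near 0. The interaction was 8.55 over all libraries and 4.18 without those 4. As a fold the departure was 374 in the fit and 39.7 on log2 CPM with a prior count. Ccdc40, needed to build motile cilia, gave 1.97 and 1.12 in the same fits, and Akd1, the adenylate kinase now named Ak9, gave 5.07 and 2.35. Akd1 too was near 0 in places, with 0 CPM in exercise replicate 4 and 0.0338 CPM in BCI-838 replicate 3. Over the choroid plexus list 20 of 21 tested genes had a positive interaction, with a median of 3.63 over all libraries and of -0.31 without the 4, which were chosen by a gene of this list. The summed level of that list was 183 to 739 CPM in the combined group, 254 to 292 CPM with BCI-838, 223 to 291 CPM with exercise and 274 to 2633 CPM in controls. The ependyma list had 14 of 14 genes above the additive level and medians of 2.66 and 0.71.

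Of the 12 genes below the additive level 3, Notch3, Myh11 and Acta2, belong to the mural cell list. Acta2 encodes smooth muscle actin (chromosome 19, 34240336 to 34255585). Acta2 had 5.77, 10.5, 5.52, 5.32 and 9.18 CPM in the combined libraries and 8.46, 31.9, 18.7 and 15.6 CPM in the BCI-838 libraries. With exercise it had 26.04, 32.6, 15.9, 35.1 and 11.9 CPM, and in controls 23.7, 7.38, 14.5, 5.78 and 7.28 CPM. The combined libraries were all low. With BCI-838 only replicate 2 was above every control, and with exercise replicates 1, 2 and 4 were. The other libraries of the single treatments overlapped the controls. The additive level was 37.05 CPM, which none of the combined libraries reached. The interaction was -2.41 ± 0.60, and -2.02 without BCI-838 replicate 2.

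Myh11, the smooth muscle myosin heavy chain (chromosome 16, 14194527 to 14292188), had the same order. Myh11 had 8.75, 10.2, 10.2, 6.76 and 10.8 CPM in the combined libraries and 9.11, 32.4, 19.7 and 17.8 CPM in the BCI-838 libraries. It was 20.96, 23.5, 16.1, 38.5 and 13.6 CPM with exercise alone and 19.8, 8.11, 13.05, 4.71 and 7.58 CPM in controls. In this gene too the combined libraries formed the tightest group. The drug effect was -1.27 in running mice and 0.89 in sedentary mice, an interaction of -2.16 ± 0.53. Notch3, a receptor that maintains mural cells (chromosome 17, 32120820 to 32166896), was 13.6, 18.4, 19.7, 14.3 and 15.7 CPM in the combined libraries and 21.8, 22.8, 25.4 and 30.5 CPM with BCI-838. It was 22.2, 23.9, 15.1, 30.9 and 17.4 CPM with exercise and 19.6, 16.2, 16.4, 18.4 and 16.1 CPM in controls, so that every BCI-838 library was above every combined and every control library. Its interaction of -0.96 ± 0.23 came to -0.47 with the dorsal midbrain covariate.

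Eln, Cnn1 and Jph2 had lower values in the combined group of the same kind. Eln encodes elastin, the elastic fibre of the vessel wall, and averaged 7.01 ± 2.23 CPM in the combined group, 13.4 ± 2.92 CPM with BCI-838, 19.9 ± 9.48 CPM with exercise and 10.9 ± 2.68 CPM in controls (SD). Its interaction was -1.81 ± 0.43 over all libraries and -0.97 with the dorsal midbrain covariate. Cnn1, the smooth muscle protein calponin, gave -2.40 ± 0.55 at 0.296 CPM in the combined group and 1.12 CPM with exercise. Jph2, which joins the sarcoplasmic reticulum to the muscle membrane, gave -2.54 ± 0.63.

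The remaining genes below the additive level have other roles. Prr16 had the second smallest p of all genes and averaged 2.83 ± 0.467 CPM in the combined group, 5.42 ± 0.586 CPM with BCI-838, 5.004 ± 0.872 CPM with exercise and 4.296 ± 0.851 CPM in controls. Its interaction was -1.16 ± 0.24. Itm2a, a membrane protein, averaged 35.2 ± 3.49 CPM in the combined group and 44.2 ± 3.402 CPM with BCI-838, and its interaction was -0.62 ± 0.14. Mogat1, an enzyme of triglyceride synthesis, gave -2.85 ± 0.61, Dsc3, the cell adhesion protein desmocollin, -6.00 ± 1.40 and Fam59b, now named Garem2, -0.68 ± 0.17. For Dsc3 the BCI-838 group held 1 library at 4.38 CPM, and the highest of the other 3 was 0.708 CPM. Control replicates 2 and 4 had 0 CPM of Dsc3. Ankrd22 had 3 reads in combined replicate 4 and none in the other combined libraries, so no fold is given for it. Of the 24 genes, 9 share exon sequence with a gene on the opposite strand in the GENCODE annotation, Adra1d, Tnfaip8l1, Fam174b, Il34, Mogat1, Notch3, Eln, Fam59b and Ankrd22, and whether these counts separate the strands is not stated.

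The vessel lists as a whole lay on the same side. Of 18 tested genes of mural cells, fibroblasts and meninges 17 were below the additive level, against 52.5% of all genes, with a median of -1.01 against -0.01. None was called, and 11 had an unadjusted p under 0.05 below the additive level, against 4.63% of all genes. The list mean was 2.77 ± 0.38 in the combined group, 3.67 ± 0.33 with BCI-838, 3.58 ± 0.38 with exercise and 3.47 ± 0.34 in controls (SD, n = 5, 4, 5 and 5), with 3.78 expected in the combined group if the effects add. Its summed level was 167 to 247 CPM in the combined group, 246 to 360 CPM with BCI-838, 236 to 430 CPM with exercise and 239 to 396 CPM in controls. The median interaction was -0.96 without the 4 libraries over 100 Ttr CPM and -0.47 with the dorsal midbrain covariate. Tagln, a smooth muscle actin-binding protein, was among the members with the smallest p, with -1.59 ± 0.47, and its exons overlap those of Pcsk7 and Gm48529 on the opposite strand.

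Endothelial genes showed the same sign with smaller values. Of 20 tested genes of the endothelium and blood-brain barrier 18 were below the additive level, against 52.5% of all genes, with a median of -0.36. None was called, and 10 had an unadjusted p under 0.05, against 4.63% of all genes below the additive level. The drug effect in running mice was negative for all 20, against 53.3% of all genes (46.7% were positive), with a median of -0.36. In sedentary mice it was positive for 13, against 50% of all genes, with a median of 0.06. The list mean was 4.15 ± 0.09 in the combined group, 4.30 ± 0.12 with BCI-838, 4.49 ± 0.13 with exercise and 4.25 ± 0.09 in controls (SD, n = 5, 4, 5 and 5), against 4.53 expected. Tie1, a receptor of endothelial cells in the angiopoietin pathway, was 9.11, 9.42, 10.9, 10.1 and 10.9 CPM in the combined libraries and 8.51, 15.1, 10.4 and 12.4 CPM with BCI-838. It was 19.5, 20.3, 13.1, 15 and 14.6 CPM with exercise and 12, 10.2, 10.95, 11.3 and 11.8 CPM in controls, so that all exercise libraries were above all combined and control libraries. Its interaction was -0.75 ± 0.20. The transporter Slco1a4 gave -0.58 ± 0.17, the angiopoietin receptor Tek -0.53 ± 0.18 and von Willebrand factor, Vwf, -1.07 ± 0.36. Over all alternatives the list median stayed between -0.44 and -0.28.

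**Figure D3:**
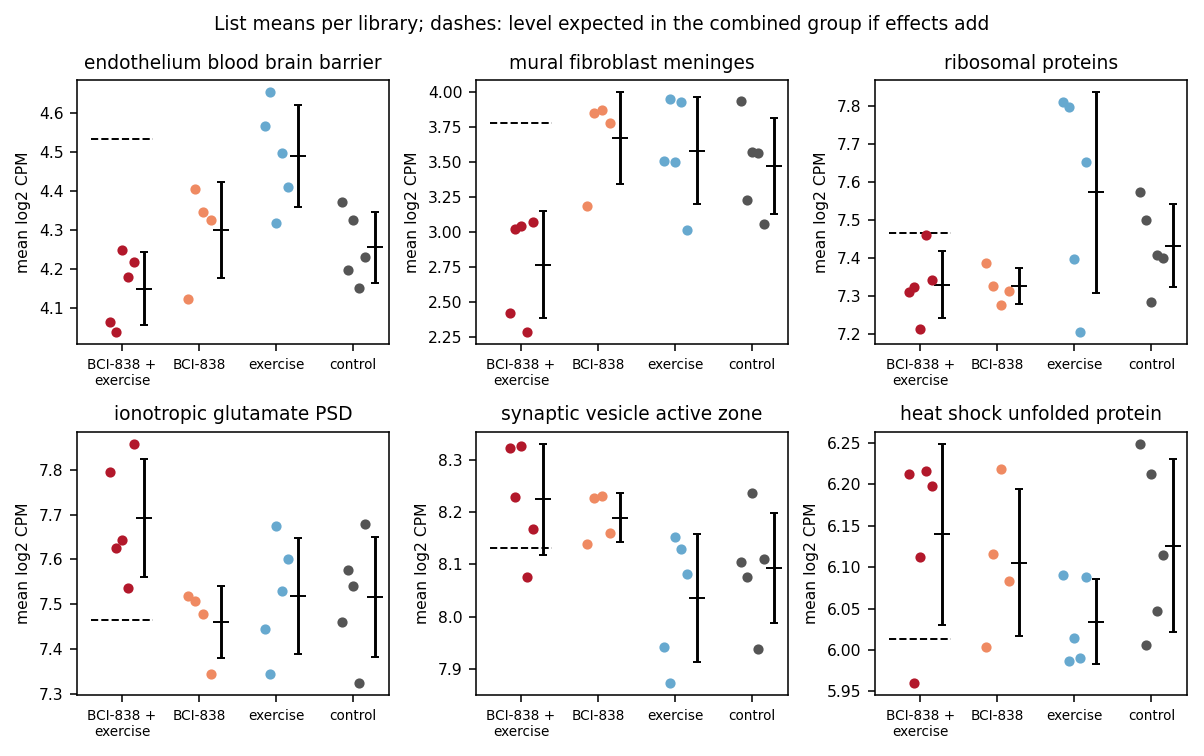
Mean log2 CPM of 6 gene lists in each of the 19 libraries (points), with the mean and SD of each group (black) and the level expected in the combined group if the effects add (dashes). All 5 combined libraries lie below the dashes for endothelium, mural cells and ribosomal proteins, and all 5 lie above them for the ionotropic glutamate receptor and postsynaptic density list.

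Genes of the glutamate synapse lay mostly above the additive level. In the list of ionotropic glutamate receptors and the postsynaptic density, 24 of 33 were above it, against 47.5% of all genes, with a median of 0.31. In the list of synaptic vesicles and the active zone, 23 of 34 were above it, with a median of 0.22. None was called, and at an unadjusted p under 0.05 there were 9 above and 1 below in the postsynaptic list and 11 above and 3 below in the vesicle list, against 5.47% of all genes above and 4.63% below. The 10 in the postsynaptic list became 16 without control replicate 1, 16 without control replicate 3 and 18 without combined replicate 4. With the dorsal midbrain covariate the medians were 0.13 for the postsynaptic and 0.11 for the vesicle list. The postsynaptic list mean was 7.69 ± 0.13 in the combined group, 7.46 ± 0.08 with BCI-838, 7.52 ± 0.13 with exercise and 7.52 ± 0.13 in controls (SD, n = 5, 4, 5 and 5), against 7.46 expected. Bsn encodes the active zone scaffold Bassoon and had the smallest p of these genes. Bsn had 851, 624, 813, 438 and 781 CPM in the combined libraries and 527, 557, 523 and 476 CPM in the BCI-838 libraries. The exercise libraries had 422, 407, 536, 458 and 481 CPM, and the controls 469, 641, 651, 613 and 685 CPM. The combined libraries had the widest range, from under the BCI-838 group to above the controls, and the interaction was 0.84 ± 0.21, with an adjusted p of 0.36 in edgeR and a call by DESeq2 (adjusted p = 0.0335).

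Other presynaptic members named by their p were the active zone protein Rims1, with 0.85 ± 0.24, the vesicular glutamate transporter Slc17a7, with 0.86 ± 0.26, and the liprin Ppfia3, with 0.53 ± 0.17. Slc17a7 averaged 1455 ± 251 CPM in the combined group, 851 ± 177 CPM with BCI-838, 1098 ± 273 CPM with exercise and 1162 ± 239.9 CPM in controls. On the postsynaptic side the scaffold Dlgap2 gave 0.87 ± 0.26, the AMPA receptor partner Cacng8 0.92 ± 0.31 and the NMDA receptor subunit Grin2b 1.02 ± 0.36. Over all alternatives Dlgap2 ran from 0.37 to 1.03, Cacng8 from 0.17 to 1.07 and Grin2b from 0.27 to 1.235. On the presynaptic side Rims1 ran from 0.59 to 0.99, Slc17a7 from 0.38 to 0.998 and Ppfia3 from 0.21 to 0.62. Grin2b averaged 354 ± 123 CPM in the combined group, 206 ± 21.3 CPM with BCI-838, 192 ± 70.6 CPM with exercise and 227 ± 49.01 CPM in controls.

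Markers of pyramidal neurons of the CA fields lay on the same side as these genes. Of 18 tested markers 16 were above the additive level, with a median of 0.88. The list mean was 5.62 ± 0.43 in the combined group, 4.96 ± 0.23 with BCI-838, 5.21 ± 0.34 with exercise and 5.16 ± 0.39 in controls (SD, n = 5, 4, 5 and 5), against 5.01 expected, and its summed level was 1033 to 2618 CPM in the combined group, 919 to 1153 CPM with BCI-838, 888 to 1623 CPM with exercise and 738 to 1811 CPM in controls. Neurod6, a transcription factor of these neurons, averaged 188 ± 76.2 CPM in the combined group and 71.3 ± 17.1 CPM with BCI-838 and gave 1.69 ± 0.50. Bok, of the Bcl2 family, gave 1.60 ± 0.49, the scaffold Homer3 1.44 ± 0.46 and the deiodinase Iyd 2.76 ± 1.12. With the CA field minus granule level as a covariate the median was 0.25 for the CA list, 0.30 for the postsynaptic list and 0.16 for the synaptic vesicle list. With the dorsal midbrain covariate the CA list median was 0.19. With the 3 composition covariates together the medians were -0.03, 0.06 and 0.17. The CA list mean is part of the covariate in the CA field minus granule fit and in the fit of 3. The fall of the CA list median there follows in part from that choice. The part of CA field tissue in the synaptic values was not tested beyond these fits.

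Ribosomal protein genes differed little in size and almost all in 1 direction. Of 76 tested genes 73 were below the additive level, against 52.5% of all genes, with a median of -0.15, and 1 had an unadjusted p under 0.05 and none was called. That count of 1 became 17 without exercise replicate 4 and 9 without exercise replicate 3, was 3 without control replicate 1 or combined replicate 4, and was 1 or 0 without any other library. The median was -0.22 without exercise replicate 4 and -0.09 without exercise replicate 1 or 2, and -0.10 without control replicate 3. The drug effect had a median of -0.25 in running mice, negative for all 76 and with an unadjusted p under 0.05 for 60, against 9.09% of all genes. In sedentary mice its median was -0.10, negative for 75 and with 2 at that p. Exercise had a median of 0.00 with the drug and of 0.16 without it, where all 76 were positive against 52.9% of all genes. The list mean was 7.33 ± 0.09 in the combined group, 7.33 ± 0.05 with BCI-838, 7.57 ± 0.26 with exercise and 7.43 ± 0.11 in controls (SD, n = 5, 4, 5 and 5), against 7.47 expected, and the exercise group had the widest spread, from 7.21 to 7.81. The share of all counts at Lars2, a mitochondrial tRNA synthetase gene with sequence like ribosomal RNA, was 0.137% to 0.301% in the combined group, 0.181% to 0.283% with BCI-838, 0.127% to 0.183% with exercise and 0.194% to 0.303% in controls. The exercise libraries were thus all below the controls, and the part of this in the ribosomal values was not tested. Rps26, a protein of the small subunit, had the smallest p, with -0.27 ± 0.12. All are measured in the same 19 libraries, so the count of 73 is not 73 separate observations. Genes of this family have many processed copies, whose reads cannot be told apart with certainty.

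Nuclear genes of the respiratory chain and of mitochondrial ribosomes had the same sign. In the respiratory chain 55 of 67 were below the additive level, with a median of -0.10, and in mitochondrial ribosomes 30 of 40, with a median of -0.05. The member of the respiratory chain with the smallest p was Ndufa6, a subunit of complex I, with -0.22 ± 0.11, and Cox5a, a subunit of cytochrome c oxidase, gave -0.23 ± 0.12. None was called, and none of the respiratory chain genes had an unadjusted p under 0.05. The respiratory chain median was -0.04 without combined replicate 3 and -0.05 without exercise replicate 1, 2 or 5, and without exercise replicate 3 its count at that p was 5. The proteasome list was close to the background, with 20 of 31 below and a median of -0.02.

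Heat shock and unfolded protein response genes lay mostly above the additive level. Of 28 tested 21 were above it, against 47.5% of all genes, with a median of 0.16. None was called, and 7 were above it at an unadjusted p under 0.05, against 5.47% of all genes, and 1 was below it. These 8 became 3 to 12 when 1 library was left out, with 3 without BCI-838 replicate 4 or combined replicate 1, 4 without control replicate 1, control replicate 3 or BCI-838 replicate 1, and 5 without BCI-838 replicate 2, exercise replicates 2 or 4, or combined replicate 5. The list mean was 6.14 ± 0.11 in the combined group, 6.11 ± 0.09 with BCI-838, 6.03 ± 0.05 with exercise and 6.13 ± 0.10 in controls (SD, n = 5, 4, 5 and 5), against 6.01 expected, and 4 of 5 combined libraries were above that level. The median was 0.28 without the libraries over 100 Ttr CPM, 0.10 with the dorsal midbrain covariate, 0.08 with the CA field minus granule covariate and 0.15 with the 3 composition covariates. Hsp90ab1, a constitutive cytosolic chaperone, gave 0.33 ± 0.13, and the inducible chaperones Hspa1a and Hspa1b, a near-identical pair whose reads may be split between them, gave 0.47 ± 0.18 and 0.70 ± 0.29. Herpud1, which acts in the degradation of proteins of the endoplasmic reticulum, went the other way, with -0.33 ± 0.13.

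Chaperones of the endoplasmic reticulum are known to share a promoter element, CCAAT and CCACG with 9 bases between them, through which the unfolded protein response acts on them. It was searched on both strands in the 250 bases before the start of each gene in RefSeq (GRCm38.p6), where 37 of 32851 promoters held it (0.113%). Of the 28 tested list members 23 had a promoter in that table, and 6 held the element, with a median interaction of 0.23 against 0.06 in the other 17. Among all 20 tested genes with the element, these included, 16 were above the additive level, against 47.5% of all genes, and the median was 0.12. The match describes letters in a window and no binding. Calr and Pdia6, chosen with Hspa5 and Hsp90b1 after their values were seen, are shown because their interactions were the 2 largest of the 6, with the element in capitals, at chr8:84847045-84847143 on the minus strand and chr12:17266441-17266539 on the plus strand. For Hspa5, at chr2:34772025-34772043 on the plus strand, the element alone is shown.
Calr: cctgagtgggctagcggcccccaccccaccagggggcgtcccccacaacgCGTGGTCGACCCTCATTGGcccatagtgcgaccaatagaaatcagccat
Pdia6: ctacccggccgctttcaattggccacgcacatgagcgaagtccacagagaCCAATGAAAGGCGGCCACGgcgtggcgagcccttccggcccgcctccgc
Hspa5: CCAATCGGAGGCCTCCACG

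Calr encodes the calcium-binding chaperone calreticulin. Calr had 215, 140.5, 156, 179.6 and 200.4 CPM in the combined libraries and 159, 164, 172 and 161 CPM in the BCI-838 libraries. With exercise it had 159, 136, 166, 138 and 159 CPM, and in controls 216, 154, 204, 146 and 181 CPM. The 4 groups overlapped, and the exercise group had the lowest mean. Its interaction was 0.37 ± 0.17, with an unadjusted p of 0.0436 and an adjusted p of 0.476 (edgeR). The disulfide isomerase Pdia6 gave 0.32 ± 0.15, the chaperone Hspa5, also called BiP, 0.24 ± 0.15 and its partner Hsp90b1 0.21 ± 0.13. The other list members with the element, Creld2 and Canx, gave 0.10 ± 0.13 and 0.06 ± 0.10. Exercise without the drug had a value of -0.30 for Hspa5 and -0.24 for Hsp90b1, whereas with the drug it was -0.06 and -0.03.

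Of the lists that bear on neurogenesis, that of stem cells was near the background. The proliferation and neuroblast lists lay mostly below the additive level, at 70% and 66.67% of genes, against 52.5% of all genes. Of 19 markers of adult neural stem cells 9 were above the additive level, with a median of 0.00, and of 20 proliferation genes 6, with a median of -0.16. Of 21 genes in the list of neuroblasts and immature neurons 7 were above it, with a median of -0.22. That median came to -0.07 without the libraries over 100 Ttr CPM. Over all alternatives the proliferation median stayed between -0.27 and -0.06, and the neuroblast median ran from -0.27 to 0.03. None of these genes was called. Hes5, a Notch target that keeps stem cells undifferentiated, averaged 7.28 ± 1.27 CPM in the combined group, 10.2 ± 2.17 CPM with BCI-838, 11.2 ± 2.65 CPM with exercise and 10.3 ± 1.22 CPM in controls, an interaction of -0.61 ± 0.24. Hopx, a marker of quiescent stem cells, gave 0.45 ± 0.19. The replication factor Mcm3 gave -0.43 ± 0.19, and the microtubule regulator Stmn2 0.35 ± 0.14. Stmn2 belongs to the neuroblast list, as do Neurod2, Rbfox3 and Dpysl5, whose interactions as fold values were 1.77, 1.30 and 0.73. Membership in that list does not confine a gene to young neurons, and which neurons these values come from was not tested. Noggin, encoded by Nog, which blocks BMP signals, averaged 6.499 ± 0.952 CPM in the combined group, 8.07 ± 0.674 CPM with BCI-838, 10.4 ± 1.33 CPM with exercise and 7.66 ± 1.903 CPM in controls, with an interaction of -0.75 ± 0.22.

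Growth factors and Wnt genes were spread to both sides. Of 28 growth factors and receptors linked to exercise 13 were above the additive level, with a median of -0.05, and of 27 Wnt ligands and inhibitors 9, with a median of -0.20. Igf1, an insulin-like growth factor, averaged 14.3 ± 1.55 CPM in the combined group, 17.9 ± 1.13 CPM with BCI-838, 13.2 ± 2.700 CPM with exercise and 11.3 ± 3.15 CPM in controls. Its interaction was -0.55 ± 0.23, and that of its receptor Igf1r was 0.36 ± 0.14. Lef1, a transcription factor of the Wnt pathway, gave -1.54 ± 0.50, and the secreted Wnt inhibitor Frzb 1.44 ± 0.57. Over all alternatives Lef1 ran from -1.71 to -0.44 and Frzb from 0.64 to 1.69. Lef1 also belongs to the list of thalamus and cortex genes, whose mean was 3.75 in the combined group against 4.53 expected. The part of such tissue in its value was not tested. Among 25 immediate early genes 16 were above the additive level, with a median of 0.13. Nr4a3, a nuclear receptor induced by activity, averaged 30.9 ± 12.8 CPM in the combined group, 11.2 ± 3.19 CPM with BCI-838, 13.9 ± 7.99 CPM with exercise and 21.96 ± 8.51 CPM in controls, with an interaction of 2.12 ± 0.59.

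Clock genes and astrocyte markers lay mostly below the additive level. Of 17 circadian genes 13 were below it, with a median of -0.22 that came to -0.04 with the 3 composition covariates. The clock output factor Dbp averaged 53.7 ± 22.9 CPM in the combined group, 66.6 ± 14.02 CPM with BCI-838, 73.97 ± 20.7 CPM with exercise and 46 ± 4.67 CPM in controls, with an interaction of -0.99 ± 0.38, and the clock repressor Nr1d2 gave -0.62 ± 0.23. Times of tissue collection were not given in the sources used here. Of 17 astrocyte markers 14 were below the additive level, with a median of -0.15 that came to -0.04 without the libraries over 100 Ttr CPM. The growth factor receptor Fgfr3 gave -0.56 ± 0.17 and the gap junction protein Gjb6 -0.39 ± 0.19. Microglial genes of the plaque response were near the background, with 11 of 26 above and a median of -0.02. Lpl, a lipase of that list, gave 1.84 ± 0.63, and over all alternatives it ran from 0.36 to 2.21. Its highest levels were 48.4 CPM in control replicate 5, 45.3 CPM in exercise replicate 5 and 61.4 and 67.6 CPM in combined replicates 1 and 5. Neurod6, of the CA field list, had 194, 157, 233 and 300 CPM in these libraries. The part of CA field tissue in the value of Lpl was not tested. Clec7a, a pattern receptor, gave 1.76 ± 0.79 at under 1 CPM in every library. The other members named by p, Axl and Cd63, lay below the additive level, with interactions of 0.82 and 0.78 as fold values.

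**Figure D4:**
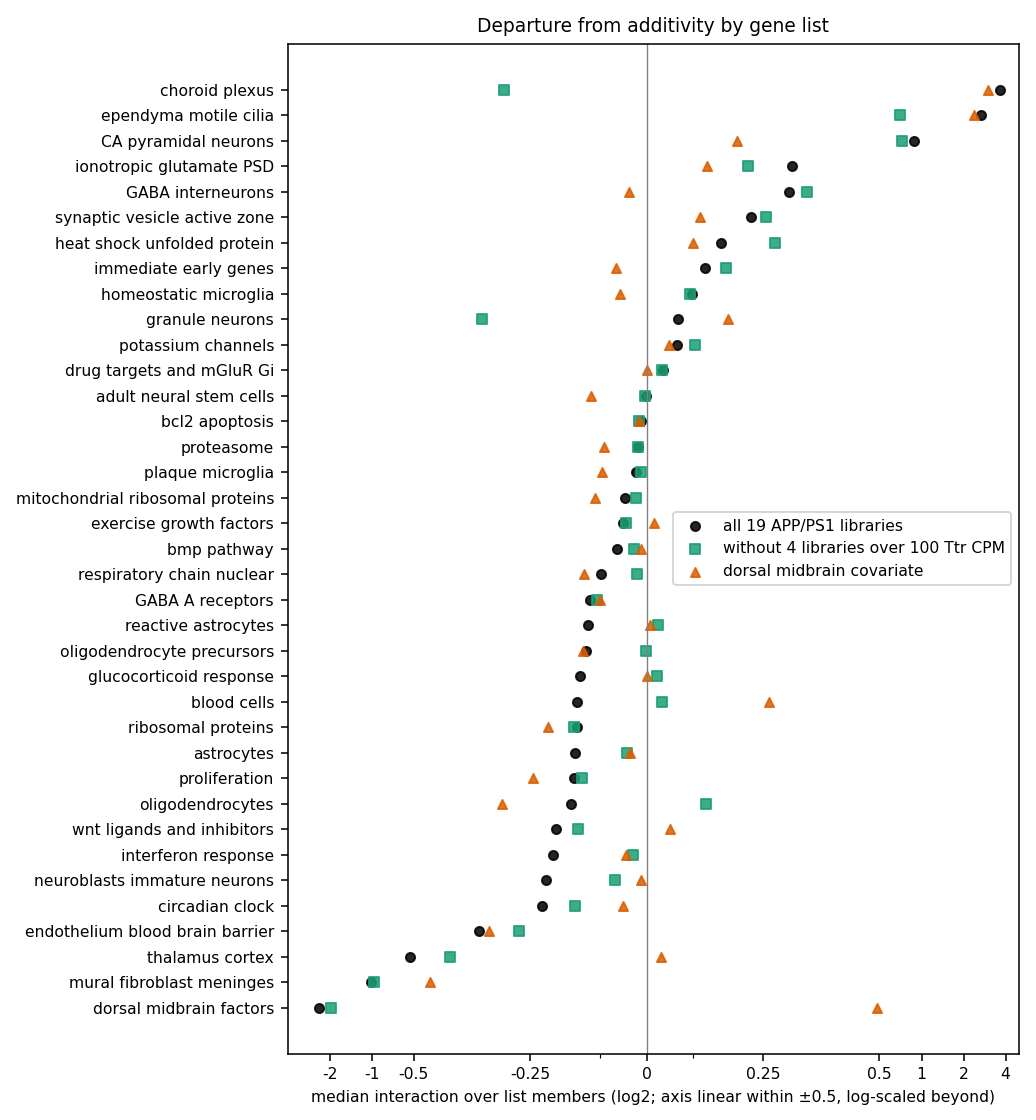
Median interaction (log2) of each of 37 gene lists over all 19 APP/PS1 libraries (circles), without the 4 libraries over 100 Ttr CPM (squares) and with the dorsal midbrain list as a covariate (triangles). The axis is linear near 0 and logarithmic beyond. The choroid plexus list crosses 0 without those 4 libraries, while the endothelium, mural, ribosomal, synaptic and heat shock lists stay on 1 side in all 3 fits.

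Dorsal midbrain factors had the most negative list median, at -2.38, with 0 of 17 tested genes above the additive level and 5 at an unadjusted p under 0.05. Their summed level was 10.1 to 158 CPM in the combined group, 120 to 301 CPM with BCI-838, 16.8 to 248 CPM with exercise and 23.4 to 262 CPM in controls. Gata2, a transcription factor with a role in midbrain inhibitory neurons, gave -1.11 ± 0.37. Pou4f2 gave -4.43 ± 1.71, with 0 CPM in combined replicate 5 and control replicate 3. These levels stand beside those of Notch3, which was also higher in every BCI-838 library than in every combined one, and their part in such values was not tested beyond the covariate fits. Without exercise replicate 4 the median was -1.67 with 1 gene at an unadjusted p under 0.05, and without combined replicate 2 or control replicate 1 there were 11 and 9 such genes, and without exercise replicate 5 also 9.

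The targets of the drug and the transgene-related genes had interactions close to the size of their SE or below it. Grm2 had 79.6, 128, 123, 59.7 and 37.8 CPM in the combined libraries and 81.04, 101, 82 and 80.7 CPM with BCI-838. The exercise libraries had 141, 127, 116, 77.7 and 119 CPM, and the controls 101, 163, 75.6, 125 and 134 CPM. The combined group had the widest range and overlapped all others, and the interaction was 0.03 ± 0.39. Grm3 gave -0.22 ± 0.27, App 0.20 ± 0.16 and Prnp, the prion protein gene, 0.14 ± 0.14, with adjusted p of 0.83, 0.721 and 0.775 (edgeR). The sign of Grm2, Grm3 and Prnp changed in some alternatives. Of 25 genes of the mGluR and inhibitory G protein list 15 were above the additive level, with a median of 0.03. Rgs14, a regulator of G protein signalling found in CA fields, averaged 144 ± 47.96 CPM in the combined group, 45.3 ± 10.96 CPM with BCI-838, 76.1 ± 33.1 CPM with exercise and 70.9 ± 40.2 CPM in controls, with an interaction of 1.57 ± 0.48. The adenylate cyclase Adcy9 gave 0.66 ± 0.25 and the potassium channel Kcnj6 0.73 ± 0.34. Over all alternatives Rgs14 ran from 0.32 to 1.88, Adcy9 from 0.17 to 0.78 and Kcnj6 from -0.04 to 0.90.

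The drug effects in running and in sedentary mice come from separate libraries and can be set side by side. At an unadjusted p under 0.05 there were 3201 genes for BCI-838 in running mice (17.6%, 8.54% higher and 9.09% lower) and 1896 for BCI-838 in sedentary mice (10.4%, 4.25% higher and 6.2% lower). None was called by edgeR in either, whereas DESeq2 called 330 and 182 and limma voom 511 and 467. In both sets at once were 363 genes, 11.3% of the first and 19.1% of the second, of which 310 had the same direction and 53 the opposite one. Across all genes the 2 effects had a Pearson correlation of -0.16 and a Spearman correlation of 0.09, and 0.04 and 0.22 without the 4 libraries over 100 Ttr CPM. Genes of a library share its tissue composition and are not independent replicates. The wheel had an unadjusted p under 0.05 for 2714 genes with the drug (14.9%, 7.69% higher and 7.26% lower) and 968 without it (5.33%, 2.25% higher and 3.08% lower). Of all genes 48.8% were higher and 51.2% lower with the wheel in drugged mice, and 52.9% higher and 47.1% lower in mice without the drug. When 1 library was left out, the 3201 became 2062 without exercise replicate 1 and 2124 without exercise replicate 2, the 2714 became 1656 without BCI-838 replicate 4, and the 968 became 1461 without exercise replicate 3 and 1612 without exercise replicate 4. EdgeR called none in either, DESeq2 461 and 72, and limma voom 1029 and 0. The 2 effects of the wheel shared 110 genes, 50 in the same direction and 60 in opposite ones. These were 4.05% of the 2714, against 5.33% of all genes, and 11.4% of the 968, against 14.9% of all genes. Without those 4 libraries they shared 224, 208 in the same direction and 16 in opposite ones. In that fit these were 9.46% of the set with the drug, against 6.16% of all genes. They were 19.7% of the set without it, against 12.8% of all genes.

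**Figure D5:**
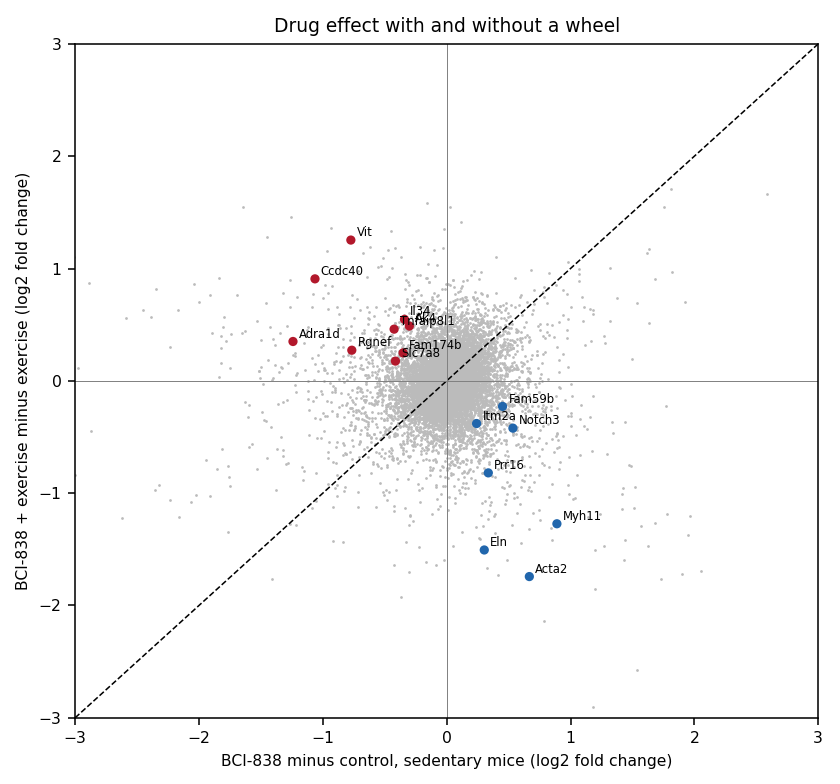
Log2 effect of BCI-838 in running mice (vertical) against sedentary mice (horizontal) for genes with a mean of at least 1 CPM in grey, with 16 genes of the smallest interaction p marked in red (above the additive level) and blue (below it). The dashed line marks equal effects, and the marked genes lie in the 2 quadrants where the effects have opposite signs.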

How the data were processed

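RNA-seq was compared between the 4 APP/PS1 groups, each library grouped by its label. The authors deposited whole-number read counts per gene, and per the submitters' processing notes used STAR, HTSeq and DESeq with mouse build mm10. Versions, and the use of strand in counting, were not stated in those sources. A deposited table of normalised values was not used here. No pair of libraries agreed within sampling noise, the lowest chi-square per gene being 19.7.

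Genes were kept by filterByExpr (minimum count 10, minimum total 15), scaled by TMM and fitted with a mean per group over 19 libraries, without pairing. The interaction and its component effects were tested in edgeR 4.0.16 (R 4.3.3) by its robust quasi-likelihood F test. A call is a Benjamini-Hochberg adjusted p under 0.05. The SE is the log2 value divided by the square root of F. CPM are scaled by library size and TMM factor, and the expected combined level is the BCI-838 mean plus the exercise mean minus the control mean of log2 CPM with a prior count of 2. List levels are means of log2 CPM with the same prior count.

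The named genes are the 12 with the smallest p in each direction, predicted genes left out, with Grm2, Grm3, App, Prnp and up to 4 members of each list by p. Calr, Pdia6, Hspa5 and Hsp90b1 were chosen after their values were seen. Creld2 and Canx, the other list members with the promoter element, are given beside them, outside this rule. Not every gene that this rule names is reported here. Members and lists were chosen with earlier results of these data known. Coordinates are from RefSeq for GRCm38, the assembly that mm10 names, with 21 of the 24 genes matched by symbol and 3 by synonym.

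Alternatives were DESeq size factors, 2 other low-count filters, DESeq2 1.42.0, limma 3.58.1 voom, all 24 libraries, the replicate number as a block, composition covariates singly and, chosen after seeing the data, 3 together, leaving out libraries over 100 Ttr CPM, 1 surrogate variable of sva 3.50.0, and leaving out each library. The fit was tested on simulated counts. Counts limit precision by sampling and by the number of mice, which the design describes as separate animals.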

Additional observations from a re-analysis of the deposited data

Results flagged for a closer look

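Of 260 groups of libraries looked at for 28 genes and 37 lists, 22 held a library whose gap to its nearest neighbour was large for the range of its group, and chance gives about 1 in 20 groups. Combined replicate 5 stood apart for Ttr (297 CPM), Calml4 (1.35 CPM), Ccdc40 (3.53 CPM), Akd1 (0.892 CPM) and the choroid plexus list (mean log2 CPM 2.26). Combined replicate 4 stood apart for Ankrd22 (0.0491 CPM) and combined replicate 2 for App (3350.0 CPM).

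In the BCI-838 group replicate 4 stood apart for Adra1d (11.9 CPM) and Dsc3 (4.38 CPM), and replicate 2 for Grm2 (101 CPM). Replicate 1 stood apart for the lists of mural cells (mean log2 CPM 3.19), neuroblasts (4.85) and the BMP pathway (3.42). In the exercise group these were replicate 1 for Vit (1.99 CPM), replicate 5 for Prr16 (3.45 CPM), and replicate 4 for Mogat1 (1.75 CPM) and the neural stem cell list (mean log2 CPM 3.58). In controls they were replicate 2 for Il34 (18 CPM), replicate 1 for Itm2a (44.9 CPM), Jph2 (1.34 CPM) and the respiratory chain list (mean log2 CPM 6.60), and replicate 4 for the homeostatic microglia list (mean log2 CPM 4.15).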

How the results depend on the processing

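The count of 0 genes called for the interaction held in all 32 alternatives but DESeq2 (77) and leaving out combined replicate 4, where it was 1. Its range over the 19 fits that leave out 1 library was 0 to 1. BCI-838 in running mice, 0 over all libraries, gave 330 with DESeq2, 511 with limma voom and 0 to 95 when 1 library was left out (60 without exercise replicate 3, 95 without combined replicate 2, 4 without exercise replicate 4 and 3 without combined replicate 4). BCI-838 in sedentary mice gave 182, 467 and 0 to 3 (3 without combined replicate 2). Exercise in BCI-838 mice gave 461 and 1029, and exercise without the drug 72 with DESeq2, 1 with all 24 libraries and 0 to 1 when 1 library was left out (1 without control replicate 1). With the replicate number as a block, the interaction gave 0, exercise in BCI-838 mice 57 and exercise without the drug 1. Of 27 same-number pairs 13 had a correlation of deviations over 0.1 (median 0.0436, range -0.364 to 0.588, against a median of -0.0417 for different numbers), so the numbers were not taken to pair the mice. The causes were not tested. DESeq size factors put 51.2% of interactions above 0, against 47.5%.

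Of 129 named genes 8 changed sign somewhere. Grm2 was -0.0235 with voom, -0.0817 with the choroid plexus covariate, -0.22 without libraries over 100 Ttr CPM, -0.24 with a surrogate variable and -0.14 to 0.24 when 1 library was left out (-0.09 without control replicate 2, -0.07 without exercise replicate 4, -0.14 and -0.11 without combined replicates 2 and 3). Grm3 was 0.0904 with the choroid plexus covariate, 0.14 without libraries over 100 Ttr CPM and 0.00804 with a surrogate variable. Kcnj6 was -0.0405 without those libraries. Prnp was -0.0443 and Sfrp2 0.20 with the dorsal midbrain covariate, and Lct -0.00507 with a surrogate variable. With the 3 covariates Sfrp2 was 0.15, Kcnj6 -0.0273, Dpysl5 0.0257 and S100b 0.0250. Leaving out the libraries over 100 Ttr CPM keeps 2 controls. Of 37 lists 16 kept the sign of their median throughout.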
